A study of Mus musculus with 6 samples.

Results

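Ubiquitin-specific proteases (USPs) were examined as a gene family in tumour-associated macrophages, the macrophages taken out of a tumour, on 6 expression arrays. Members were all genes whose symbol begins with Usp and a digit and that had at least 1 probe set carrying exactly 1 symbol in the platform annotation, without Usp18, Usp9x and Usp9y. The brightest probe set over the 6 arrays stood for each gene. This gave 52 genes of 19938 measured, from 55 probe sets. The label fits 50 of them: Usp6nl encodes an activator of Rab GTPases, and Usp46os2 is a transcript from the strand opposite Usp46, so neither encodes a protease of this family.

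The cells came from hepa1-6 tumours, grown from a mouse hepatoma line implanted orthotopically in the liver of C57BL/6 mice, and were sorted by flow cytometry. One group of 3 arrays holds macrophages of mice given vehicle and the other, also of 3, those of mice given PLX3397, a small molecule that blocks the receptor kinase CSF1R and, beside it, KIT and FLT3. All 6 samples share strain, tumour line and site, and the labels used here give no age, dose or duration of treatment. Samples are labelled as biological replicates, but no label names separate animals, so each p-value reflects the spread among these 6 samples alone, which may be technical. A further name in each sample's description field points to cultured macrophages, LPS with interferon-gamma for the vehicle samples and IL4 for the treated ones, against the titles and treatment fields, which were used for the groups.

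USPs are the largest family of deubiquitinases, cysteine proteases that cut the small protein ubiquitin from other proteins. Ubiquitin chains mark proteins for the proteasome, steer receptors through endosomes, switch innate signalling on and off and mark histones, and a USP removes or trims such marks on its own set of substrates. In macrophages, deubiquitinases are known for limiting or sustaining signalling from Toll-like and interferon pathways. A transcript level says nothing of the activity of the enzyme.

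Values are log2 levels as deposited, given in the order of replicates 1 to 3, with means ± SD (n = 3), and each change is PLX3397 minus vehicle with its standard error (SE). A gene was called changed at an adjusted p under 0.05 in a limma fit over all 19938 genes with Benjamini-Hochberg adjustment. A background level was set for every array from genes of smell and pheromone receptors, as their 95th percentile, and was 3.52 to 3.58. The number of arrays, 3 in each group, limits the precision, and an exact permutation test of a single value cannot go below p = 0.1 here.

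More Usp genes were lower than higher in macrophages from PLX3397-treated mice. Of the 52 genes, 25 fell and 7 rose, and 20 did not pass the test. Over all genes 18.3% fell and 19.6% rose, 37.8% in all. The median change of the 52 was -0.18, beside 0.04 for all genes. The falls were also larger, from -0.34 to -1.36, and the rises ran from 0.29 to 0.50. A called fall of at least 1 log2 was seen in 5 of them, Usp34, Usp25, Usp53, Usp16 and Usp14, beside 4.04% of all genes. Groups did not overlap for 34 of the 52 genes, including 24 of the 25 that fell and all 7 that rose, beside 49.3% of all genes. All 32 called genes were above background on all 6 arrays. In these bulk samples fewer cells of a type and less RNA per cell cannot be told apart.

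**Figure D1:**
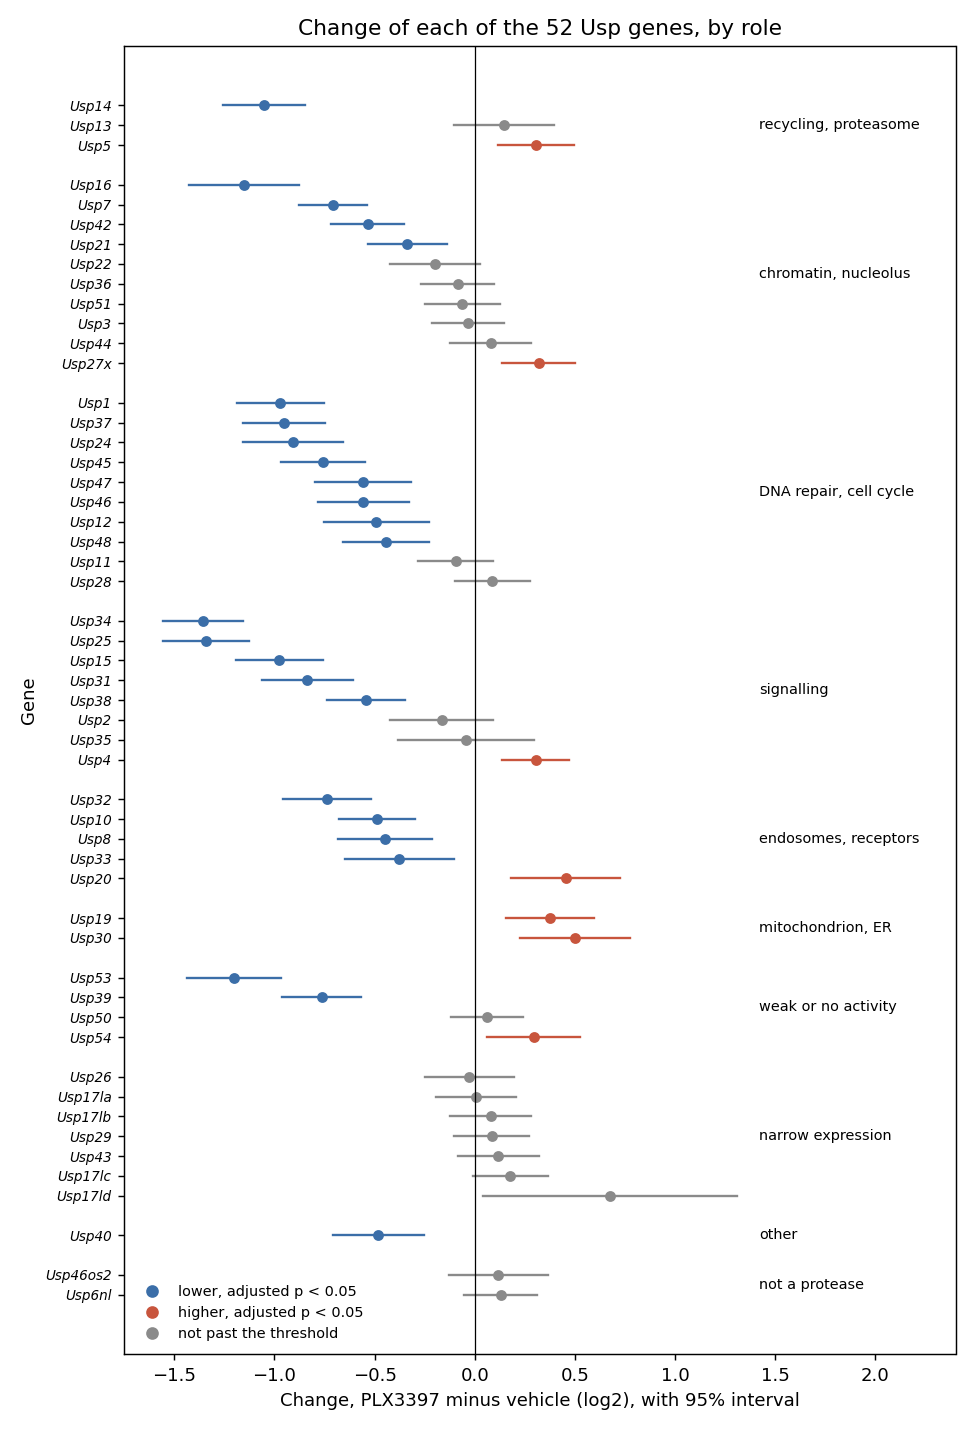
Change of each Usp gene (horizontal axis, PLX3397 minus vehicle on the log2 scale) with its 95% interval from the limma fit, 3 arrays per group; genes are grouped by the role named at the right. Blue marks the 25 genes that fell, red the 7 that rose and grey the 20 that did not pass the test; the falls reach -1.36 (Usp34) and the rises 0.50 (Usp30).

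The shares of all genes that fell and rose differed with level, so the Usp genes were also counted by level. Among all genes with a mean level of 6 to 8, 39.3% fell and 23.9% rose, with a median change of -0.12. Of the 23 Usp genes in that range 16 fell and 3 rose, with a median of -0.49. At a level of 4 to 6, 18.4% of all genes fell and 28.5% rose (median 0.12), and of 14 Usp genes 7 fell and 2 rose (median -0.32). The 3 Usp genes at 8 or over, Usp25, Usp4 and Usp8, comprised 2 falls and 1 rise, where 32.4% of all genes fell and 33.3% rose. Below a level of 4, where 3.48% of all genes fell and 7.86% rose, 12 Usp genes held 1 call, the rise of Usp27x. The shares of all genes set beside the lists below were not matched for level.

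**Figure D2:**
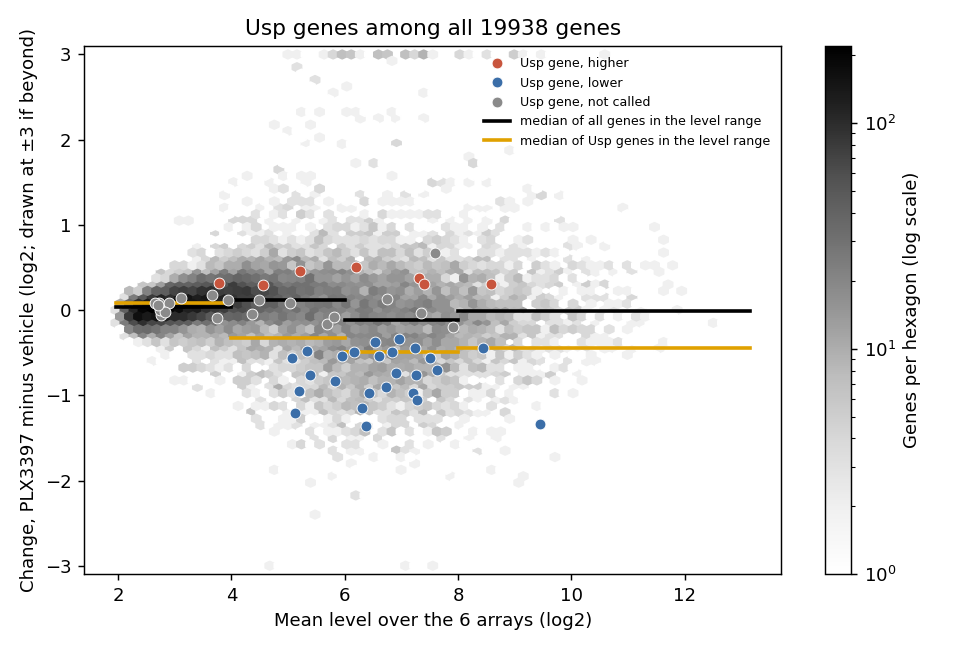
Change (vertical axis, PLX3397 minus vehicle, log2, drawn at the edge beyond 3) against the mean level over the 6 arrays (horizontal axis, log2). Grey hexagons count all 19938 genes on a log scale, points are the 52 Usp genes, and the black and yellow lines give the median of all genes and of the Usp genes in 4 level ranges, which were -0.12 and -0.49 between 6 and 8.

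Among the USPs of cell signalling, Usp34, Usp25, Usp15, Usp31 and Usp38 fell, Usp4 rose, and Usp2 and Usp35 did not pass the test. All 8 were above background on all 6 arrays, where 26.3% of all genes fell and 26.4% rose. Usp34, which acts on axin in Wnt signalling, lay at 6.93, 7.18 and 7.03 on the vehicle arrays and at 5.76, 5.68 and 5.63 on the PLX3397 arrays. Every PLX3397 array was more than 1 log2 below every vehicle array. The change of -1.36 (SE 0.09, adjusted p = 1.52e-06) leaves 39.1% of the vehicle level. It was the largest fall of the family, and 1.72% of all genes had a lower change.

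Usp25, which edits ubiquitin chains on TRAF adaptor proteins downstream of cytokine and Toll-like receptors, was at 10.07, 10.28 and 9.98 in vehicle and at 8.79, 8.83 and 8.69 with PLX3397. The groups lay far apart and each was tight. Its change was -1.34 (SE 0.10, adjusted p = 2.61e-06), to 39.5% of the vehicle level. The groups of Usp28, its closest relative and a stabiliser of MYC, overlapped. It lay at 4.98, 5.08 and 4.90 in vehicle and at 4.99, 5.11 and 5.12 with PLX3397, a change of 0.09 with a 95% interval of -0.10 to 0.28. The changes of the pair differed by -1.43 log2 (Usp25 minus Usp28).

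Usp15 and Usp4, close paralogues that both act on TGF-beta receptor signalling, went opposite ways. Usp15 fell from 7.57, 7.85 and 7.64 to 6.61, 6.73 and 6.80 (-0.98, SE 0.10, adjusted p = 2.36e-05). Usp4 rose from 8.46, 8.41 and 8.42 to 8.70, 8.78 and 8.74 (0.30, SE 0.08, adjusted p = 0.0092). Neither gene's groups overlapped. Usp11, the third of these paralogues and a partner of BRCA2 in DNA repair, lay near background, at 3.77, 3.80 and 3.80 in vehicle and 3.66, 3.61 and 3.82 with PLX3397, with an interval of the change from -0.28 to 0.09. The rise of Usp4 did not pass when arrays were centred on their medians (adjusted p = 0.081, range 0.0012 to 0.081 over the 16 alternatives).

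Usp31, a regulator of NF-kB signalling, fell from 6.19, 6.46 and 6.10 to 5.42, 5.46 and 5.36 (-0.84, SE 0.10, adjusted p = 9.91e-05). Usp38, which limits TBK1 in interferon induction, fell by 0.54 to 68.7% of the vehicle level. All PLX3397 arrays lay below all vehicle arrays for both genes. Usp2, a circadian gene, changed by -0.17 (interval -0.42 to 0.09, adjusted p = 0.301) and Usp35 by -0.04 (interval -0.38 to 0.30). Usp2 passed as lower without vehicle replicate 3 (-0.30, adjusted p = 0.039), and its change was -0.07 without vehicle replicate 2 (adjusted p from 0.039 to 0.715 over the alternatives).

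**Figure D3:**
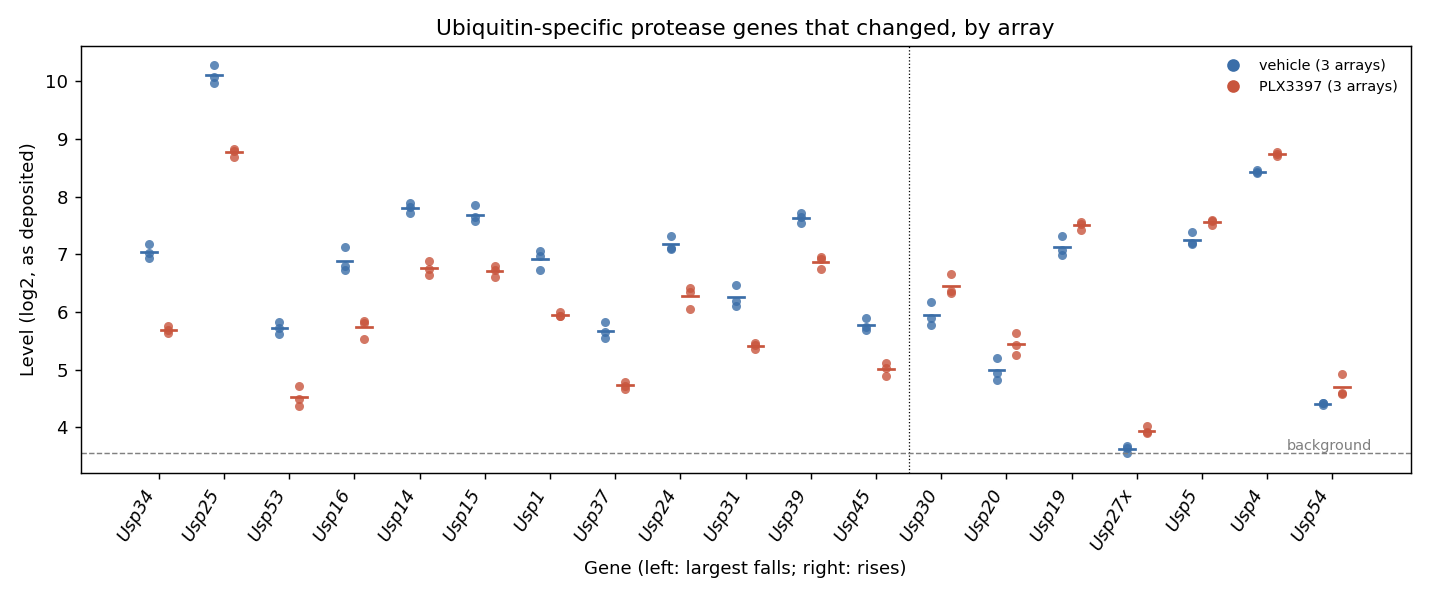
Level (vertical axis, log2 as deposited) on each array of the 12 Usp genes with the largest falls (left of the dotted line) and the 7 that rose (right); blue points are the 3 vehicle arrays, red the 3 PLX3397 arrays, and short bars their means. The dashed line is the mean background level of the arrays; in each gene shown the groups do not overlap.

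Of the 10 USPs of DNA repair, the cell cycle and the WDR48 complexes 8 fell and 0 rose. The 10 were above background on all 6 arrays, where 26.3% of all genes fell and 26.4% rose. Usp1, which removes ubiquitin from FANCD2 and PCNA, fell from 6.97, 6.72 and 7.05 to 5.92, 5.99 and 5.92 (-0.97, SE 0.10, adjusted p = 2.39e-05). Usp37, which stabilises cyclin A, fell from 5.54, 5.83 and 5.65 to 4.78, 4.67 and 4.72 (-0.95, SE 0.09, adjusted p = 1.96e-05). Both genes lost close to the same share, to 51.0% and 51.7% of the vehicle level. Of 9 measured proliferation markers 5 rose and 0 fell, beside 26.4% and 26.3% of all genes above background on all 6 arrays. The summed level of the list, a sum of log2 values, ran from 49.7 to 50.4 in vehicle and from 53.4 to 53.9 with PLX3397. Top2a changed most (2.12), and Mki67 (-0.10), Ccna2 (-0.29), Pcna (-0.09) and Mcm5 (0.17) did not pass the test. The part of these markers in the Usp changes was not tested.

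Usp24, a very large USP, was at 7.10, 7.32 and 7.11 in vehicle and at 6.35, 6.41 and 6.05 with PLX3397. All vehicle values were above all PLX3397 values (-0.91, SE 0.11, adjusted p = 1.05e-04). Usp45, which serves the ERCC1-XPF nuclease, fell from 5.69, 5.89 and 5.73 to 5.02, 5.12 and 4.89 (-0.76, SE 0.09, adjusted p = 1.05e-04). Usp47, which stabilises DNA polymerase beta, fell by 0.56 and Usp48, a histone H2A and RelA deubiquitinase, by 0.44.

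Usp12 and Usp46 are near twins, both inactive until bound by WDR48 and WDR20, and both fell. Usp12 went from 6.45, 6.62 and 6.17 to 5.82, 6.04 and 5.90 (-0.49, SE 0.12), and Usp46 from 5.21, 5.42 and 5.41 to 4.96, 4.66 and 4.75 (-0.56, SE 0.10). Of their activators, Wdr20 fell by 0.24 (SE 0.08, adjusted p = 0.044), a call lost under 10 of 16 alternatives, among them each vehicle array and PLX3397 replicate 1 or 3 left out (adjusted p from 0.0080 to 0.155). Wdr48, which also serves Usp1, changed by -0.19 (SE 0.10, adjusted p = 0.153), passing as lower with centred arrays (0.032). Dmwd, also among the USP partners listed, rose by 0.28 (SE 0.09, adjusted p = 0.026), and its groups did not overlap. Usp46os2, the opposite-strand transcript, lay at 4.34, 4.57 and 4.39 in vehicle and at 4.33, 4.63 and 4.70 with PLX3397, and its groups overlapped.

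Histone and nucleolar USPs split into 4 falls, 1 rise and 5 genes that did not pass. Of the 10 genes 8 were above background on all 6 arrays, where 26.3% of all genes fell and 26.4% rose. Usp16, which removes ubiquitin from histone H2A, fell from 6.73, 7.12 and 6.80 to 5.81, 5.85 and 5.53 (-1.15, SE 0.12, adjusted p = 3.96e-05), to 45.0% of the vehicle level. Usp7, the protease that stabilises MDM2 and p53, was at 7.95, 8.01 and 8.01 in vehicle and at 7.32, 7.29 and 7.23 with PLX3397 (-0.71, SE 0.08, adjusted p = 4.15e-05). Vehicle and PLX3397 arrays of both genes were far apart. Usp42 fell by 0.53 and Usp21, which also acts on RIPK1, by 0.34. The fall of Usp21 did not pass without PLX3397 replicate 1 (adjusted p = 0.050, range 0.0023 to 0.050).

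Usp22, Usp27x and Usp51 are relatives that share the cofactors ATXN7L3 and ENY2 and act on histone H2B, Usp22 within the SAGA complex. Usp22 was at 8.02, 7.96 and 8.04 in vehicle and at 7.70, 8.03 and 7.70 with PLX3397, where replicate 2 lay among the vehicle values (-0.20, SE 0.10, adjusted p = 0.160). It passed as lower when arrays were centred and without PLX3397 replicate 2 (adjusted p from 0.020 to 0.463 over the alternatives). Usp27x rose just above background, from 3.55, 3.68 and 3.63 to 3.89, 3.91 and 4.02 (0.32, SE 0.08, adjusted p = 0.011), a call lost with centred arrays and with cyclic loess (adjusted p from 0.0089 to 0.084). Usp51 was below background on all arrays, with 2.83, 2.85 and 2.71 in vehicle and 2.66, 2.73 and 2.82 with PLX3397. Of the cofactors, Eny2 fell by 0.40 and Atxn7l3 changed by 0.02 (adjusted p = 0.906). Usp3, another H2A deubiquitinase, changed by -0.03 (interval -0.21 to 0.14) and the nucleolar Usp36 by -0.09 (interval -0.27 to 0.10), and Usp44 was below background.

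At the proteasome and in ubiquitin recycling the 3 members behaved differently. Usp14, which sits on the proteasome and trims chains from arriving substrates, fell from 7.71, 7.89 and 7.82 to 6.88, 6.74 and 6.64 (-1.05, SE 0.09, adjusted p = 9.57e-06), to 48.2% of the vehicle level. Usp5, which takes apart unanchored ubiquitin chains, rose from 7.19, 7.18 and 7.38 to 7.58, 7.59 and 7.51 (0.31, SE 0.09, adjusted p = 0.017). No array of either gene lay in the range of the other group. The rise of Usp5 was lost with centred arrays and without vehicle replicate 1, vehicle replicate 2 or PLX3397 replicate 1 (adjusted p from 0.0022 to 0.130). Usp13, the relative of Usp5, was below background on all arrays, with means of 3.03 ± 0.14 in vehicle and 3.18 ± 0.19 with PLX3397.

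Among USPs of endosomes and membrane receptors 4 of 5 fell, beside 26.3% of all genes above background on all 6 arrays, as these 5 were. Usp32, an endosomal USP, fell by 0.74, from 7.27 ± 0.15 to 6.53 ± 0.09 (adjusted p = 1.86e-04). Usp10, a partner of the stress granule protein G3BP1, fell by 0.49, and Usp8, which spares receptors from lysosomal sorting, by 0.45. Of the STAM genes, whose proteins recruit Usp8 to endosomes, Stam2 fell by 0.96 (SE 0.11, adjusted p = 5.79e-05) and Stam by 0.40 (SE 0.08, adjusted p = 0.0022). G3bp1 changed by -0.24 (SE 0.10, adjusted p = 0.099) and Ptpn23, another listed USP partner, by -0.01 (adjusted p = 0.947). Neither passed the test.

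Usp20 and Usp33, paralogues that both return the beta2-adrenergic receptor to the cell surface, moved apart. Usp20 rose from 5.20, 4.82 and 4.94 to 5.63, 5.43 and 5.26 (0.45, SE 0.12, adjusted p = 0.014). Usp33 lay at 6.90, 6.71 and 6.54 in vehicle and at 6.21, 6.57 and 6.24 with PLX3397 (-0.38, SE 0.12, adjusted p = 0.033). Usp20's lowest PLX3397 value was just above its highest vehicle value, and Usp33's groups overlapped, the 1 case among the 25 falls. Usp20 lost its call with centred arrays and without vehicle replicate 2 or PLX3397 replicate 1 (adjusted p from 0.0056 to 0.064). Usp33 lost it with quantile normalisation, with cyclic loess and without vehicle replicate 1 or 2 or PLX3397 replicate 1 or 3 (adjusted p from 0.0071 to 0.124).

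The 2 membrane-anchored USPs both rose, beside 26.4% of all genes above background on all 6 arrays. Usp30, which sits in the outer mitochondrial membrane and opposes parkin-driven mitophagy, rose from 6.17, 5.90 and 5.77 to 6.36, 6.66 and 6.33 (0.50, SE 0.12, adjusted p = 0.0088), to 142% of the vehicle level. Usp19, which has a form anchored in the endoplasmic reticulum, rose from 6.98, 7.07 and 7.31 to 7.56, 7.52 and 7.42 (0.38, SE 0.10, adjusted p = 0.013). Both genes had PLX3397 arrays above all vehicle arrays by a small margin. Usp30 was the 1 riser that passed under all 16 alternatives (adjusted p from 0.0037 to 0.039), and Usp19 did not pass with centred arrays or without vehicle replicate 1 (adjusted p from 0.0022 to 0.080). In RefSeq order Usp19 and the likewise higher Usp4 lie on chromosome 9 with 6 protein-coding genes between them. Usp25 and Usp16, which both fell, lie on chromosome 16 with 17 between them. Usp8 and Usp50 on chromosome 2, with 0 between them, changed by -0.45 and 0.06. The part of position was not tested.

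Of 4 USPs reported to have little or no protease activity, 2 fell, 1 rose and Usp50 was below background. Over all genes 18.3% fell and 19.6% rose. Usp53, a tight-junction protein, fell from 5.62, 5.72 and 5.83 to 4.48, 4.37 and 4.71 (-1.20, SE 0.10, adjusted p = 9.55e-06), to 43.5% of the vehicle level. Usp39, a splicing factor, fell from 7.54, 7.65 and 7.71 to 6.91, 6.95 and 6.75 (-0.76, SE 0.09, adjusted p = 6.83e-05). In both genes the groups were widely separated. Usp54, the paralogue of Usp53, rose from 4.42, 4.38 and 4.42 to 4.59, 4.58 and 4.93 (0.29, SE 0.10, adjusted p = 0.048), with replicate 3 the highest. That call was lost under 11 of 16 alternatives, among them the replicate block (adjusted p from 0.031 to 0.236).

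Close relatives were compared by the difference of their changes in 12 pairs. The differences were -1.496 log2 for Usp53 minus Usp54, -1.43 for Usp25 minus Usp28, 1.28 for Usp4 minus Usp15 and 0.83 for Usp20 minus Usp33. Each gave p = 0.1 in a two-sided exact permutation test, the smallest 3 against 3 arrays allow, and 0.15 after Benjamini-Hochberg adjustment over the 12 pairs. Usp12 and Usp46 differed by 0.06 (exact p = 0.7) and Usp1 and Usp37 by -0.02 (exact p = 1).

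The USPs of germ cells or narrow expression gave no call. Usp26, Usp29, Usp17la and Usp17lb were below background on all arrays, and Usp17lc and Usp43 lay near it with changes of 0.18 and 0.12. Usp17ld, of a mouse family first known as cytokine-inducible deubiquitinases of blood cells, was well above background, at 7.31, 7.23 and 7.23 in vehicle and 7.64, 7.37 and 8.78 with PLX3397. Replicate 3 stood above the other 2 PLX3397 arrays (0.68, SE 0.28, adjusted p = 0.090). Without PLX3397 replicate 2 the gene passed, and adjusted p ran from 0.023 to 0.191 over the alternatives. Usp17l genes are near-identical copies that can share probes, so the value of any single one is uncertain. Usp40 fell by 0.48 (SE 0.10, adjusted p = 0.0038), and the Rab activator Usp6nl changed by 0.13 (adjusted p = 0.250).

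Genes of the other deubiquitinase families, not all of which encode active enzymes, also had more falls than rises. Of 40 measured genes 21 fell and 5 rose, 52.5% and 12.5%, with a median change of -0.23, while of the 50 USP proteins 50.0% fell and 14.0% rose, with a median of -0.27. All genes stood at 18.3% and 19.6%, and those above background on all 6 arrays at 26.3% and 26.4%. Of the 40 genes 39 were above background on all 6 arrays, and of the 50 USPs 41. In the JAMM family 8 of 11 fell and 0 rose, counting relatives such as Psmd7 and Eif3h that are not active proteases. The falls were led by Brcc3, which cuts K63-linked chains in DNA repair and inflammasome complexes (-1.16, SE 0.09), and by the histone H2A deubiquitinase Mysm1 (-1.11, SE 0.09). Cops5 of the COP9 signalosome fell by 0.88, and Psmd14, the deubiquitinase of the proteasome lid, by 0.61.

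In the OTU family 7 of 16 fell and 1 rose. Otud4 changed by -1.18, Otud6b by -1.14 and Vcpip1, a partner of the segregase VCP, by -0.66, all past the test. Tnfaip3, which encodes the NF-kB brake A20, fell from 8.90 ± 0.07 to 8.50 ± 0.18 (-0.41, SE 0.10, adjusted p = 0.0094), and Otud7b, a regulator of non-canonical NF-kB signalling, rose by 0.96 (SE 0.09, adjusted p = 1.98e-05). Cyld, which has a USP-type catalytic domain and also restrains NF-kB, fell by 0.24 (SE 0.08, adjusted p = 0.036), a call lost with quantile normalisation, with cyclic loess and without vehicle replicate 2 or 3 or any PLX3397 array (adjusted p from 0.0054 to 0.139). Among the 40 genes of the other families, the largest fall was that of Zup1 (-1.48, SE 0.19) and the largest rise that of Uchl1 (1.37, SE 0.10).

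UCH and Josephin genes were even, with 3 rises and 3 falls of 7 measured. Uchl1, known from neurons, rose and its relative Uchl3 fell by 1.16, while Uchl5 of the proteasome fell by 0.70 and Atxn3 by 0.68. Of the 6 CYLD, MINDY and ZUP1 genes 3 fell and 1 rose, Mindy1 by 1.15 and Mindy2 lower by 0.62. Among 11 USP partners 6 fell and 1 rose, beside 26.3% and 26.4% of all genes above background on all 6 arrays. Gmps, a cofactor of Usp7, was lower by 0.81 and Atxn7 of SAGA by 0.61 (adjusted p = 0.026). Atxn7 did not pass without vehicle replicate 2 or 3 or PLX3397 replicate 3 (adjusted p from 0.011 to 0.110). Of 6 ubiquitin and E1 genes 1 was measured through its own probe set, Uba6, which encodes a ubiquitin-activating enzyme and fell by 0.93 (SE 0.08, adjusted p = 7.94e-06).

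**Figure D4:**
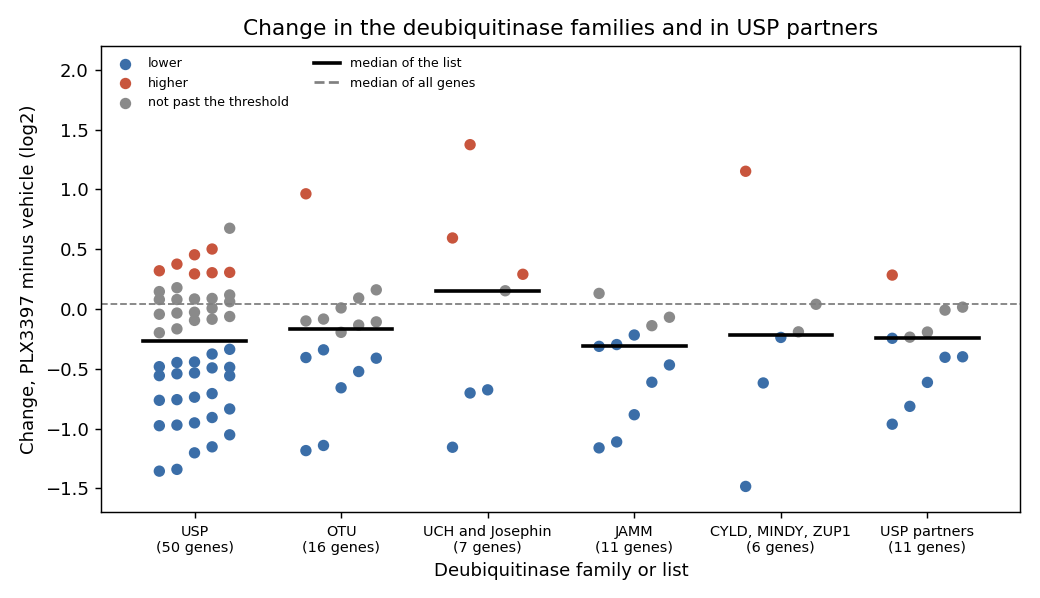
Change (vertical axis, PLX3397 minus vehicle, log2) of each measured gene in the USP family, the other deubiquitinase families and USP partners; blue points fell, red rose and grey did not pass the test. Black bars are list medians, -0.27 for the USPs and -0.31 for the JAMM family, and the dashed line is the median of all genes, 0.04.

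Promoters of members that moved are shown for a look at their base composition, as the 250 bases before a RefSeq start (GRCm38.p6, gene strand, 5′ to 3′). Of the 52 genes 42 matched the promoter table, with 43 windows. Those of genes that fell are Usp34 (chr11:23306645-23306894, plus strand), Usp25 (chr16:77013819-77014068, plus strand) and Usp16 (chr16:87454735-87454984, plus strand), and those of genes that rose are Usp30 (chr5:114100083-114100332, plus strand) and Usp4 (chr9:108347581-108347830, plus strand). Capitals mark matches, on either strand, to 8 motifs, none of which contains another. These were the SP1 motif GGGCGG, the ETS motif CCGGAAG, the E-box CACGTG, the CCAAT box, the TATA box spelled TATAAA, the YY1 motif AAGATGG, the cAMP response element TGACGTCA and the palindrome of NRF1 with 10 letters.
Usp34: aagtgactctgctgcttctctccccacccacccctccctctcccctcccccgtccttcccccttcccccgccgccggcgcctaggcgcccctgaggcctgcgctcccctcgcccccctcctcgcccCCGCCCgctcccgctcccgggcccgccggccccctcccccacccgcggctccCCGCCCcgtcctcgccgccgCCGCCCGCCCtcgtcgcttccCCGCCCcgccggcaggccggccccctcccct
Usp25: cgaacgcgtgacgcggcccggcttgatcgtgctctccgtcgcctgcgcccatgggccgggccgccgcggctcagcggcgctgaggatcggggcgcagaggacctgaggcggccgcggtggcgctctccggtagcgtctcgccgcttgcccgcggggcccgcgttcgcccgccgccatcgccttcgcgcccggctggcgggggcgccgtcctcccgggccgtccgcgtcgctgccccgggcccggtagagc
Usp16: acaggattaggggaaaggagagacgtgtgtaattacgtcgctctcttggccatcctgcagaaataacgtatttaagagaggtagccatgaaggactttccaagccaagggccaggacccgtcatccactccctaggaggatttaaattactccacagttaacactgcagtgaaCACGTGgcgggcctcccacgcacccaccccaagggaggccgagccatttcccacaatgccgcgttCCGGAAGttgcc
Usp30: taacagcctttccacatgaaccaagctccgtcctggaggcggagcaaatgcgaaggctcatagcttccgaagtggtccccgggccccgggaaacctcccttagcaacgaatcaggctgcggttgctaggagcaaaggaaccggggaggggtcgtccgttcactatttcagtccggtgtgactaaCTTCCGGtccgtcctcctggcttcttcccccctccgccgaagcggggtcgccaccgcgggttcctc
Usp4: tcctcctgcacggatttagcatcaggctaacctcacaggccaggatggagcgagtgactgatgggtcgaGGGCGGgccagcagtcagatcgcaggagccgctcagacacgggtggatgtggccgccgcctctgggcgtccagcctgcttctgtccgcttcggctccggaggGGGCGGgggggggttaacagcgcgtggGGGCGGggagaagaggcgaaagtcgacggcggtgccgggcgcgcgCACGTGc

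Usp34's window is 82.0% G and C and holds GGGCGG matches on the opposite strand, and that of Usp25, at 80.0%, holds none of the 8 motifs. Usp16's window is 54.0% G and C, with 1 E-box and 1 ETS match. Over all member windows the median was 64.0% G and C, beside 52.4% over all 32851 windows of the table, and the GGGCGG motif was found in 62.8% beside 32.7%. The 19 windows of genes that fell and the 6 of genes that rose had medians of 65.2% and 63.6%. CCAAT was in 1 of the 19 and 0 of the 6 windows, and in 11 of 18 windows of genes that did not pass, 4 of them of Usp17l genes, against 33.8% of all windows. These are counts of letters in 1 window per start and were not tested.

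Array medians were 4.21 to 4.25 in vehicle and 4.32 to 4.35 with PLX3397, with no overlap between the groups. Across genes, 2 vehicle arrays correlated at 0.9961 to 0.9966, 2 PLX3397 arrays at 0.9916 to 0.9963, and arrays of different groups at 0.9512 to 0.9612. The median Usp level was 6.11 to 6.36 on vehicle arrays and 5.62 to 5.79 on PLX3397 arrays. Each count of markers that follows stands beside 19.6% rises and 18.3% falls over all genes. Among genes above background on all 6 arrays these shares were 26.4% and 26.3%. Sums are of log2 values, include genes below background and were not corrected for the difference in array medians. All 8 measured macrophage markers were above background on all arrays. Of these 3 fell, Fcgr1 (-0.79), Adgre1 (-0.42) and Mertk (-0.37), and 2 rose, Itgam (0.97) and Cd14 (0.55), while the summed level of the list was 85.7 to 86.0 in vehicle and 85.3 to 86.5 with PLX3397. Endothelial markers rose in 5 of 8 cases (sums 33.0 to 33.3 and 38.9 to 40.7), with Tek below background and Emcn above it on 1 array. Mast cell and basophil genes rose in 3 of 8, Kit, Gata2 and Hdc (25.8 to 26.8 and 34.0 to 34.5). The other 5, among them Cpa3, were below background. B cell genes rose in 4 of 5 (20.5 to 20.6 and 23.0 to 23.2), with the risers Cd79a and Ms4a1 below background. Dendritic cell genes rose in 2 of 7, Ccr7 (3.35) and Zbtb46 (0.39), with sums of 24.8 to 25.3 and 28.5 to 30.02. Xcr1, Clec9a and Siglech were below background. Neutrophil genes rose in 2 of 8, S100a8 (1.52) and Ly6g (31.0 to 32.1 and 33.0 to 34.2), with 4 of 8, among them Ly6g, below background. Of T cell genes 1 of 6 rose, Lat (1.95), with sums of 22.0 to 22.9 and 24.1 to 24.8 and Cd3d and Cd3g below background. Of hepatocyte genes 1 of 6 rose, Trf (2.85), with sums of 25.1 to 25.6 and 28.3 to 28.5. Alb, Ttr and Fgb were below background, and Afp and Apoa1 did not pass the test. Of NK cell genes 0 of 6 rose (18.3 to 18.6 and 18.8 to 19.1), with 5 of 6 below background. Of fibroblast genes 2 of 7 fell (36.6 to 39.3 and 36.5 to 39.8). The part of these genes in the Usp changes was not tested.

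Centring each array on its median, in place of the deposited scale, put the all-gene median at -0.08 in place of 0.04 and moved the share of calls that were rises from 51.7% to 33.1%. Under it 26 Usp genes fell and 1, Usp30, rose. The other 6 risers kept a positive change but did not pass. Of the 25 falls, 23 passed under all 16 alternatives, the exceptions being Usp21 and Usp33.

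**Figure D5:**
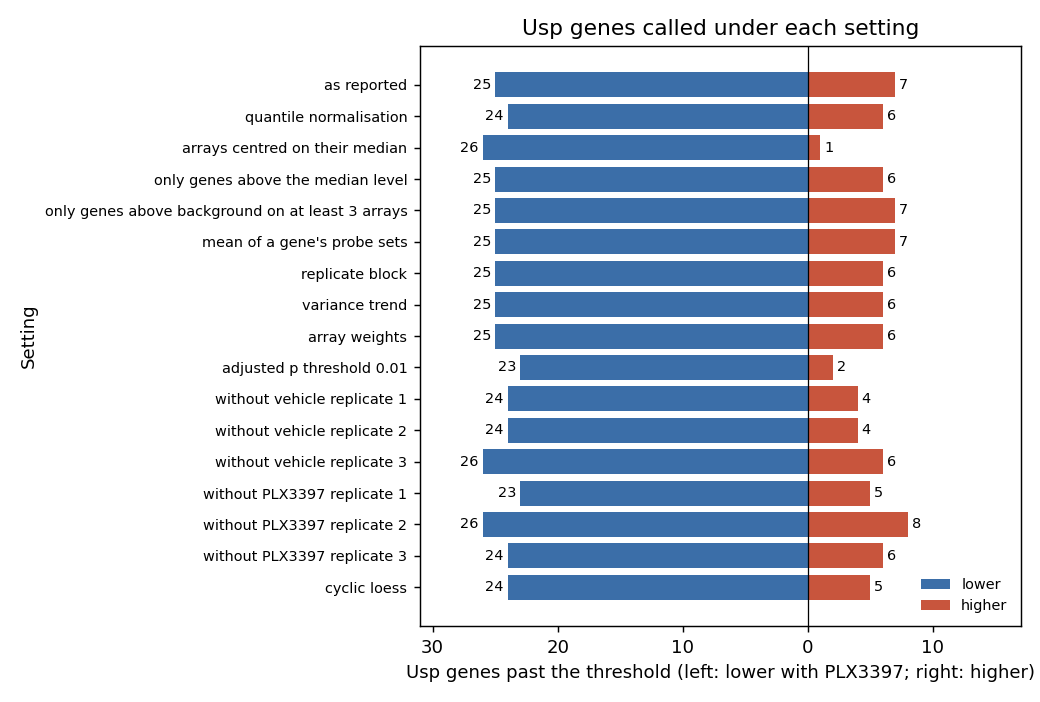
Number of Usp genes past the threshold (horizontal axis; left, lower with PLX3397; right, higher) as reported and under each of 16 other settings (vertical axis). Falls number 23 to 26 throughout, while rises run from 1 with centred arrays to 8 without PLX3397 replicate 2.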

How the data were processed

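Per the labels' protocols, total RNA of sorted macrophages was labelled with biotin and put on Mouse Gene 1.0 ST arrays (Affymetrix). The authors deposited 1 log2 value per probe set and array (28941 probe sets, 1.57 to 13.5); the base was taken from the values. How probes were summarised and arrays normalised was, in the sources used here, not given; MAS5 appears in the submitters' processing notes, without version or role. Batches could not be examined, since scanner files were not analysed here.

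Of the probe sets, 21789 carry 1 symbol, 1621 several and 5531 none. Values were used as deposited because array medians differed by less than 0.5. For the group difference a model with group alone was run in limma (3.58.1; R 4.3.3) by lmFit and eBayes, with two-sided p-values, and tested on simulated data. Replicate numbers did not pair the samples (correlation of deviations -0.013 to 0.0080). Members, lists, roles and pairs were chosen with earlier results of these data known. Values per array are given for called members without overlap, up to 12 in each direction, and for fixed relatives, with Usp13 by its means. Usp7, Usp17ld and Usp46os2 are also given per array. From other lists, changes are given for up to 4 called genes with the largest change, and for Cyld, Tnfaip3 and Wdr48. Wdr20, Eny2, Atxn7l3, Dmwd, Ptpn23 and G3bp1 were added after their values were seen. Dmwd, Ptpn23 and G3bp1 were not followed over the alternatives. Alternatives covered scaling, filters, probe sets, variance settings, the block, the threshold and each array left out. Promoter windows are from RefSeq (GRCm38.p6). Figures were drawn with matplotlib 3.10.9.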

Additional observations from a re-analysis of the deposited data

How the results depend on the processing

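The counts of all genes past the threshold, of Usp genes that fell and of genes of the other lists stayed within 1.5 times of their reported values under all 16 alternatives; cyclic loess was chosen after seeing the data. The number of Usp genes that rose, reported as 7, was 1 with centred arrays, 2 at an adjusted p of 0.01, and 4 to 8 when 1 array was left out, with 4 without vehicle replicate 1 or 2. The median change of the Usp genes, -0.18, was -0.30 with centred arrays, -0.49 among the 38 above the median level of all genes and -0.44 among the 44 above background on at least 3 arrays; the last values rest on fewer, brighter genes. For the others the cause was not tested. With the replicate number as a block 25 Usp genes fell and 6 rose, and 3646 of all genes rose and 3508 fell. The numbers did not pair the samples. Of the called genes followed over the alternatives, Usp54 (adjusted p = 0.051), Cyld (0.061) and Wdr20 did not pass under the block.

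Changes of sign arose in Usp genes that had not passed and in Atxn7l3, which had not passed either (-0.102 with centred arrays, -0.0438 to 0.0672 with 1 array left out). With centred arrays these were Usp28 (-0.029), Usp44 (-0.038), Usp43 (-7.2e-05), Usp50 (-0.056), Usp46os2 (-0.000698), Usp29 (-0.034), Usp17la (-0.11) and Usp17lb (-0.039). Quantile normalisation turned Usp17la (-0.000186) and Usp3 (0.079), cyclic loess Usp3 (0.052) and Usp46os2 (-0.0036), and array weights Usp17la (-0.038). With 1 array left out Usp17la ran from -0.0544 to 0.0716, Usp35 from -0.22 to 0.099 and Usp26 from -0.0932 to 0.0730. Below background, differences have little meaning.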

Other observations

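A few probe sets that name Usp genes were not used for the genes above. Those of Usp24 and Usp31, each the dimmer of a pair, fell like the brighter: Usp24 from 4.64, 4.82 and 4.57 to 3.99, 3.90 and 3.85 (-0.76, SE 0.09, limma adjusted p over all probe sets 1.32e-04), and Usp31 from 5.4, 5.34 and 5.15 to 4.12, 4.38 and 4.62 (-0.92, SE 0.13, adjusted p = 3.83e-04). The dimmer probe set of Usp54 changed by 0.20 (SE 0.12, adjusted p = 0.241), and its groups overlapped. A probe set shared by Usp49 and Med20 changed by 0.30 (adjusted p = 0.121), and a further one, shared by 4 Usp17l genes, lay at background and changed by 0.01 (adjusted p = 0.933).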
